A study of Homo sapiens with 2 samples.

Results

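The 9 genes described here are markers and regulators of lung and foregut identity, chosen by name from 16399 listed genes. They are the transcription factor genes NKX2-1, FOXA1, FOXA2, GATA6, HNF4A, SOX9 and BARX1 and the alveolar genes ABCA3 and LPCAT1. Each was found by its Entrez ID, and all 9 had whole-number counts. BARX1 was included because an earlier look at these data had shown it to be higher in cells with added PKP2, so its values are a description. The data are RNA sequencing of A549, an established human lung adenocarcinoma line often used as a model of alveolar type II cells. The vector group carried an empty vector, and the PKP2 group overexpressed PKP2, an armadillo-repeat protein of the desmosome, with an SFB tag. Both were cultures of A549 at passage 5 in serum-containing DMEM, with no further allele or agent given, and the labels do not say whether either was a single clone. Each group held 1 library, so no difference has a replicate check, no p-value is given, and what is compared throughout is this pair of libraries, not the conditions.

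The lung arises from the ventral foregut, next to the endoderm that forms stomach, liver and pancreas. FOXA1 and FOXA2 are forkhead pioneer factors that open chromatin across this endoderm, and GATA6 and HNF4A act with them, HNF4A chiefly in liver, gut and stomach. NKX2-1, a homeobox factor, specifies lung epithelium and drives the surfactant genes, SOX9 marks the tips of the branching lung buds, and BARX1 is a homeobox factor of the mesenchyme around the developing stomach. In mature alveolar type II cells ABCA3 pumps phospholipid into lamellar bodies and LPCAT1 remodels phosphatidylcholine for surfactant.

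The vector library held 16996976 estimated counts and the PKP2 library 16808842. Levels are given as CPM, counts per 1000000 of a library's total, and a gene counted as expressed when either library reached 1 CPM, which 12820 genes did. PKP2 itself stood at 27.3 CPM with the vector and 268 CPM with added PKP2 (9.82-fold higher, 8.92 to 10.8), the direction that the labels give. All 5 epithelial markers were expressed, 2 higher and 3 lower, with a median log2 difference of -0.01. The keratin genes KRT8 (5339 and 5416 CPM), KRT18 (3875 and 3849 CPM) and KRT19 (326 and 368 CPM) were abundant, CDH1 stood at 63.2 and 55.0 CPM, and EPCAM at 1.47 and 1.37 CPM. All 9 lineage genes had a row in both libraries and 8 were expressed. Every interval below covers counting error at 95% and nothing else.

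NKX2-1 was the member that was not expressed. Its 2 counts (vector) and 1 count (PKP2), 0.118 and 0.0595 CPM, lie below the 3 counts that served as the floor, 0.177 and 0.178 CPM, and no fold is given. The upper ends of the exact Poisson intervals, 0.425 and 0.331 CPM, put its level under 1 CPM in both libraries. In a bulk sample fewer cells with a transcript and fewer transcripts per cell cannot be told apart, here and for the genes below. The gene (Entrez ID 7080) lies on chromosome 14, 36516392 to 36521149, minus strand, on GRCh38 as in all positions below.

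Several other markers of alveolar type II cells, among them surfactant genes that NKX2-1 is known to drive, were near or under 1 CPM. Another 7 were not analysed, and CTSH, HHIP and ETV5 were above 1 CPM in both libraries. Of 16 alveolar type II genes, 9 were analysed and 6 were expressed, 4 higher and 2 lower, with a median difference of 0.12 on the log2 scale. The median was 0.05 over all 9 without the filter on low counts and 0.03 at a mean of 5 CPM or more. The surfactant protein genes SFTPB (0 and 1 count) and SFTPD (1 and 0 counts) were at or below the floor, and the aspartic protease NAPSA had 13 and 14 counts, under 1 CPM. SFTPA1, SFTPA2, SFTPC, SLC34A2, PGC, SFTA2 and SFTA3 were not analysed here. LPCAT1, ABCA3 and ETV5, an ETS factor of the distal lung at 52.2 and 45.3 CPM, were the most abundant per length of the genes analysed. CTSH stood at 13.8 and 15.9 CPM and HHIP at 2.24 and 2.32 CPM. LAMP3, a lamellar body protein gene, stood at 0.588 and 1.01 CPM, from 10 and 17 counts, and passed the filter only through the PKP2 library. The 2 lipid-handling members were thus expressed in libraries with SFTPB, SFTPD and NKX2-1 under 1 CPM.

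Promoter letters are shown for the members whose upstream sequence holds a core motif of a member's family, since these factors are known to bind one another's genes. The 250 bases before the annotated start were read from RefSeq (GRCh38.p14), on the gene's strand, for the 6 of 9 members with an entry (8 windows). They were searched on both strands for the forkhead core TGTTTAC, the NKX core CAAGTG and the GATA core AGATAA. Capitals mark a match, on either strand. The windows are chr14:36519557-36519806 (minus strand) for NKX2-1, chr14:37595250-37595499 (minus strand) for FOXA1 and chr20:44355449-44355698 (plus strand) for HNF4A.
NKX2-1: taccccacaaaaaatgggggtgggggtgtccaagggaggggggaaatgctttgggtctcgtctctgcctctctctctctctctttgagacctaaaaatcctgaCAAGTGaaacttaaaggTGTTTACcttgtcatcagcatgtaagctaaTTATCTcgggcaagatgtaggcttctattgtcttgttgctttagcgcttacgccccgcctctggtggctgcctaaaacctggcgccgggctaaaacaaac
FOXA1: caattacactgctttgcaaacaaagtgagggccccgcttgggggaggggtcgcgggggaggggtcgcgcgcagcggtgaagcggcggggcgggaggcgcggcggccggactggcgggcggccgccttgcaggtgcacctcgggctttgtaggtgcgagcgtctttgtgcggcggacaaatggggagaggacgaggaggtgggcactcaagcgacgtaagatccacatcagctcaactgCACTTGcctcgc
HNF4A: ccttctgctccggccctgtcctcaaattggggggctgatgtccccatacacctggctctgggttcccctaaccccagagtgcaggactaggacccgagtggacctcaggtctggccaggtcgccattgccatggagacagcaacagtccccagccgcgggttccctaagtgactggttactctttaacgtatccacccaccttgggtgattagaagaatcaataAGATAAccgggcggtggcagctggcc
The NKX2-1 window, at the downstream of its 2 listed starts, held all 3 cores, the NKX core 147 bases, the forkhead core 130 bases and the GATA core 100 bases before the start. The FOXA1 window held the NKX core 12 bases before the start, and the HNF4A window the GATA core 26 bases before it. Of 35116 promoter windows of this length, 2.98% held the forkhead core, 9.50% the NKX core and 9.17% the GATA core. The other 5 windows, of LPCAT1, ABCA3, GATA6 and the further starts of NKX2-1 and HNF4A, held none of these letters. These matches are letters in a window and no measurement of binding. Nothing in the counts says which start of NKX2-1 or HNF4A was used.

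The forkhead genes were expressed in both libraries, and neither differed beyond counting error. FOXA1 (Entrez ID 3169, chromosome 14, 37589984 to 37596059, minus strand) had 172 counts with the vector and 189 with added PKP2, 10.1 and 11.2 CPM, a ratio of 1.11 with an interval of 0.899 to 1.37. FOXA2 (Entrez ID 3170, chromosome 20, 22581005 to 22585455, minus strand) had 611 and 654 counts, 35.9 and 38.9 CPM, a ratio of 1.08 (0.968 to 1.21). Per kilobase of its longest transcript FOXA2 stood above FOXA1 in both libraries, at 14.8 against 3.54 CPM and at 16.1 against 3.93 CPM. FOXA1 made up 22.0% of the counts of the pair in the vector library (exact binomial interval 19.1 to 25.0) and 22.4% in the PKP2 library (19.6 to 25.4), so the balance between them was within counting error. FOXA3, the other member of the family, was near the limit of expression at 1.59 and 1.43 CPM.

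GATA6, HNF4A and SOX9 did not differ detectably at this depth either. GATA6, a zinc finger factor (Entrez ID 2627, chromosome 18, 22169443 to 22202528, plus strand), had 122 and 108 counts, 7.18 and 6.43 CPM, a ratio of 0.895 (0.684 to 1.17). HNF4A, a nuclear receptor (Entrez ID 3172, chromosome 20, 44355700 to 44434596, plus strand), had 391 and 393 counts, 23.0 and 23.4 CPM, a ratio of 1.02 (0.881 to 1.17). SOX9, an HMG box factor (Entrez ID 6662, chromosome 17, 72121020 to 72126420, plus strand), had 486 and 479 counts, 28.6 and 28.5 CPM, a ratio of 0.997 (0.877 to 1.13). For HNF4A and SOX9 a difference of 1.5-fold lies outside the interval on either side, and the same holds for FOXA1, FOXA2 and GATA6, whose intervals span 0.684 to 1.37. NKX2-1, FOXA1, GATA6, HNF4A, SOX9 and ABCA3 overlap an annotated gene on the other strand, judged on whole gene spans with introns. The use of strand in the counting is not given in the sources used here. Whether any counts of these 6 genes came from reads of the overlapping genes was not tested. FOXA2, BARX1 and LPCAT1 have no such overlap, though FOXA2 and LPCAT1 share part of their span with another annotated gene on their own strand, a microRNA in the case of LPCAT1. NKX2-1, HNF4A and ABCA3 also share part of their span with a gene on their own strand.

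**Figure D1:**
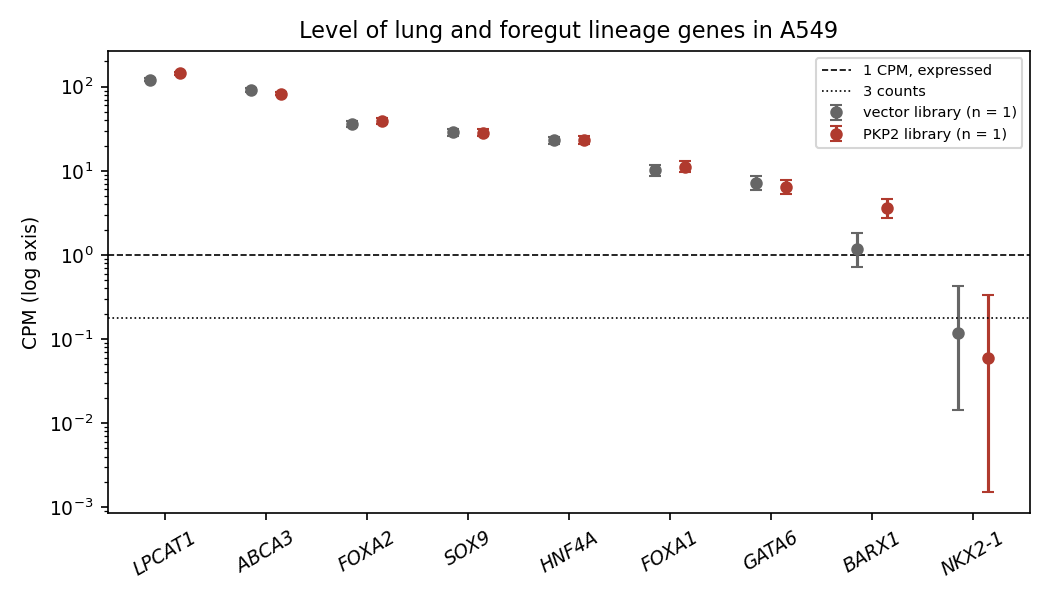
Level of each of the 9 lineage genes in the vector library (grey) and the PKP2 library (red), in CPM on a log axis, with exact 95% Poisson intervals and 1 library per group. CPM is not set per length, so points are to be compared within a gene. BARX1 is the member whose 2 points lie far apart (1.18 and 3.63 CPM), and NKX2-1 lies below 3 counts in both libraries.

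BARX1 was the member with the largest difference. It had 20 counts with the vector and 61 with added PKP2, 1.18 and 3.63 CPM, a ratio of 3.08 with an interval of 1.84 to 5.40. The gene (Entrez ID 56033) lies on chromosome 9, 93951622 to 93955372, minus strand. The vector value is close to the 1 CPM line that defines expression, and both values rest on fewer than 100 counts. On the scale used for counting differences, PKP2 minus vector in log2(CPM + 1), BARX1 stood at 1.09, rank 9 from the top among 12820 expressed genes. At least 2-fold higher on that scale were 0.0858% of expressed genes (11 genes) and at least 2-fold lower 0.101% (13 genes). BARX1 was chosen for this difference, so its rank supports nothing further.

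BARX1 has a short and GC-rich transcript, of 1533 nucleotides and 70.0% GC at its longest, and the difference between these libraries moved with both properties. Over 10798 genes that averaged at least 5 CPM, Spearman's rho of the difference was -0.52 with transcript length and 0.41 with GC content, a description across genes of the same libraries. With an additive trend on both removed, BARX1 stood at 0.87, still past 1.5-fold and no longer past 2-fold.

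The genes with whole counts nearest to BARX1 in level and difference were IL6, FLRT2 and CSF2. Nearness was the distance on log2(CPM + 1) over the 2 libraries, 0.16 for IL6, 0.27 for FLRT2 and 0.30 for CSF2. IL6, an inflammatory cytokine gene, stood at 1.41 and 3.45 CPM, from 24 and 58 counts. FLRT2, a membrane protein gene of cell adhesion and guidance, stood at 1.35 and 2.92 CPM, and CSF2, which encodes the cytokine GM-CSF, at 1.65 and 3.33 CPM. Likeness over 2 libraries says only that the values were close.

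BARX1 is known from mesenchyme, so markers of other cell types are given beside it. Of 8 fibroblast markers 6 were analysed and 3 were expressed, 3 higher and 0 lower, with a median difference of 0.32 that was 0.11 over all 6 without the filter on low counts. The list's summed level was 11.1 CPM with the vector and 14.0 CPM with added PKP2. COL1A1, a collagen chain gene, stood at 8.12 and 10.4 CPM, a ratio of 1.27 with an interval of 1.01 to 1.61. THY1 stood at 1.47 and 2.20 CPM (0.877 to 2.59) and LUM at 0.824 and 1.13 CPM (0.652 to 2.96), so that LUM counts as expressed only through the PKP2 library. COL3A1 had 2 counts and 1 count, PDGFRB 1 count in each and PDGFRA 8 and 3 counts. Their part in the BARX1 values was not tested. Of 6 endothelial markers 4 were analysed and none was expressed, with a summed level of 0.353 and 1.01 CPM and VWF at 0 and 2 counts. Of 6 leukocyte markers 3 were analysed and 2 expressed, with a median difference of 0.02, and CD68, a lysosomal protein gene not limited to leukocytes, stood at 78.4 and 82.5 CPM of a summed 82.1 and 86.0 CPM, CD14 at 3.35 and 3.27 CPM and LYZ below 1 CPM. PTPRC, the defining leukocyte gene, was not analysed here.

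The alveolar members ABCA3 and LPCAT1 lay on opposite sides, LPCAT1 higher and ABCA3 lower in the PKP2 library. LPCAT1 (Entrez ID 79888, chromosome 5, 1456480 to 1523977, minus strand) had 2069 counts with the vector and 2434 with added PKP2, 121.7 and 144.8 CPM. Its ratio was 1.19, with an interval of 1.12 to 1.26 that excludes 1. ABCA3 (Entrez ID 21, chromosome 16, 2275881 to 2340746, minus strand) had 1558 and 1396 counts, 91.7 and 83.1 CPM, and was 1.10-fold lower with added PKP2 (1.03 to 1.19). Within a library, where depth cancels, LPCAT1 made up 57.0% of the counts of the pair in the vector library (55.4 to 58.7). In the PKP2 library LPCAT1 made up 63.6% (62.0 to 65.1), and these intervals, which cover counting error only, do not overlap. The share rests on the same counts as the differences of LPCAT1 and ABCA3 above and is no separate check of them. How often other pairs of genes at these levels differ as far was not tested.

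The size of the differences of LPCAT1 and ABCA3, each taken alone, was common among other genes. Of 2799 expressed genes within 2-fold of the mean level of LPCAT1, 15.1% differed at least as far in either direction as its 0.25 on the log2 scale. Of 3874 genes within 2-fold of ABCA3, 41.5% differed at least as far as its -0.14. The SD of the difference was 0.19 over genes of 100 CPM or more, a spread that the counting intervals do not cover. With the trend on length and GC taken out, LPCAT1 stood at 0.28 and ABCA3 at -0.10.

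**Figure D2:**
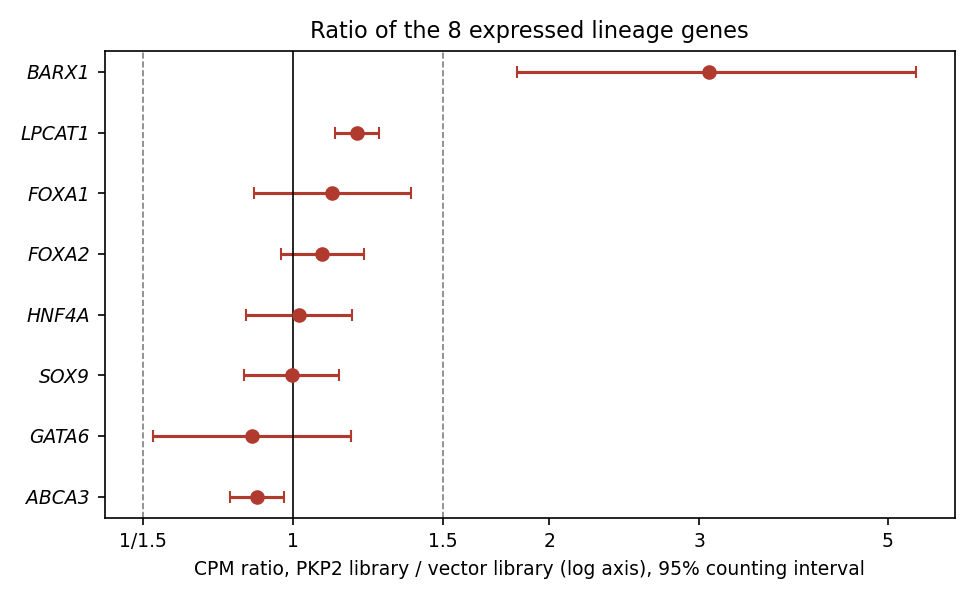
CPM ratio of the PKP2 library to the vector library for the 8 expressed lineage genes, on a log axis, with exact 95% Clopper-Pearson counting intervals and dashed lines at 1.5-fold. BARX1 lies past 1.5-fold at 3.08, LPCAT1 (1.19) and ABCA3 (0.906) have intervals that exclude 1, and the other 5 intervals include 1.

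As a set, 5 of the 8 expressed members were higher and 3 lower in the PKP2 library, with a median difference of 0.07 against -0.00 over all 12820 expressed genes. BARX1, chosen for being higher, is among the 5 and enters the median and the counts of higher members that follow. These figures are therefore a description and support nothing about the set. On the log2(CPM + 1) scale, which sets every count of genes past a fold given here, at least 1.5-fold higher was 1 member, BARX1, beside 0.733% of expressed genes, and no member was at least 1.5-fold lower, beside 0.788%. The counting interval of the ratio lay above 1 for 2 of 8 members (BARX1 and LPCAT1), beside 16.3% of expressed genes, and below 1 for 1 of 8 (ABCA3), beside 19.8%. Apart from BARX1, the share of members with an interval off 1 was thus near the background, which was not matched for level. The differences of the other 7 members ran from -0.14 to 0.25.

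**Figure D3:**
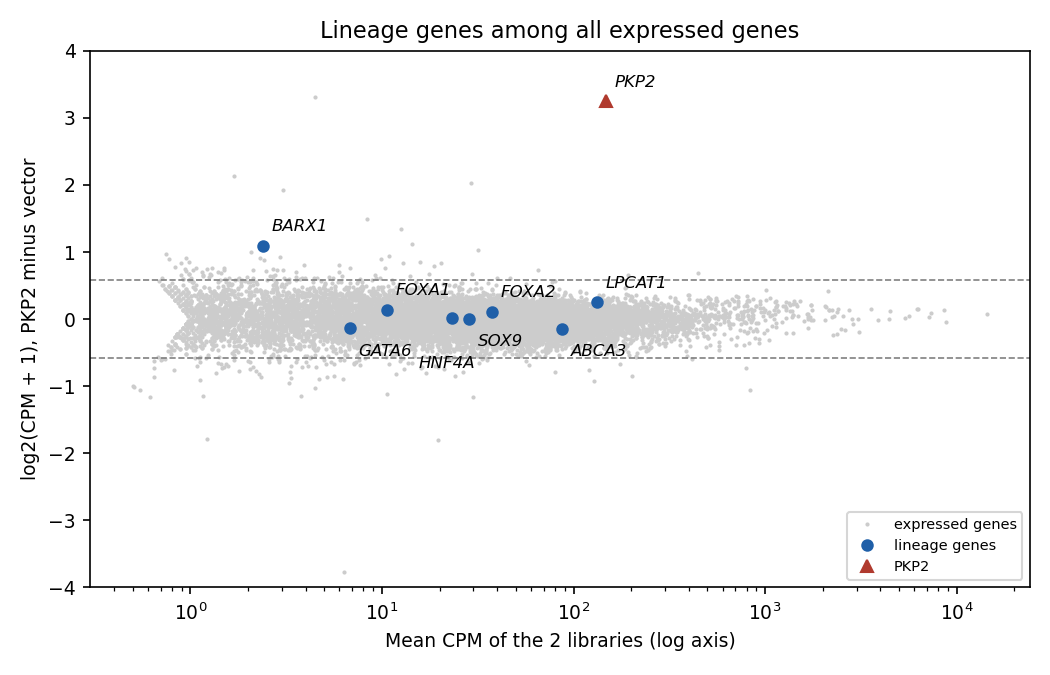
Difference of log2(CPM + 1), PKP2 minus vector, against the mean CPM of the 2 libraries on a log axis, for 12820 expressed genes (grey), the 8 expressed lineage genes (blue) and PKP2 (red triangle), with dashed lines at 1.5-fold. BARX1 at 1.09 stands above the 1.5-fold line at a low level, and the other 7 lineage genes lie between -0.14 and 0.25.

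Levels of different genes were set in order per length, as CPM per kilobase of the longest transcript. LPCAT1 was highest at 21.7 (vector) and 25.8 (PKP2), rank 2700 of the expressed genes by the mean. FOXA2 followed at 14.8 and 16.1, then ABCA3 at 13.9 and 12.6, SOX9 at 7.27 and 7.24, and FOXA1 at 3.54 and 3.93. HNF4A stood at 3.57 and 3.63, GATA6 at 1.90 and 1.70, and BARX1 at 0.768 and 2.37 CPM per kilobase. FOXA1 and HNF4A could not be ordered in either library, with ratios of 0.991 (0.823 to 1.19) and 1.08 (0.906 to 1.29). FOXA2 and ABCA3 were level in the vector library, at a ratio of 1.07 (0.973 to 1.18), and FOXA2 was 1.28-fold above ABCA3 in the PKP2 library (1.16 to 1.40). GATA6 was 2.48-fold above BARX1 in the vector library (1.54 to 4.20), and in the PKP2 library the ratio was 0.720 (0.521 to 1.00), an interval that just includes 1. The longest transcript need not be the one these cells use, which bears most on HNF4A, whose longest has 6445 nucleotides.

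The wider families of these factors were read from lists of related genes. Of 21 FOXA, GATA, HNF and C/EBP factors and their partners, 19 were expressed, 10 higher and 9 lower in the PKP2 library, and none was at least 1.5-fold apart. The median difference was 0.02. HNF4G, the paralog of HNF4A, was 1.42-fold lower (1.07 to 1.90), at 5.00 against 7.12 CPM. The C/EBP factors CEBPB, at 100.2 against 78.3 CPM, and CEBPD, at 35.5 against 28.3 CPM, were 1.28-fold (1.19 to 1.38) and 1.25-fold (1.11 to 1.42) higher. With the trend on length and GC taken out, HNF4G stood at -0.33 instead of -0.44, CEBPB at 0.19 instead of 0.35 and CEBPD at 0.14 instead of 0.32.

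Of 14 SOX genes 10 were expressed, 5 higher and 5 lower, with a median of 0.09. SOX17, an endoderm factor, was the 1 gene of the list at least 1.5-fold lower, beside 0.788% of all expressed genes. It stood at 2.18 CPM (37 counts) with the vector and 0.952 CPM (16 counts) with added PKP2, 2.29-fold lower (1.24 to 4.40). It passed the filter only through the vector library, and the count was 0 with a pseudocount of 5 and at a mean of 5 CPM or more. SOX4 was 1.14-fold higher (1.06 to 1.24) and SOX12 1.18-fold higher (1.10 to 1.27), at 83.7 and 91.1 CPM in the PKP2 library. SOX2, the airway and stomach counterpart of SOX9, stood at 8.18 and 10.2 CPM, with an interval of 0.995 to 1.58 that includes 1. SOX13 stood at 29.8 and 26.5 CPM (0.781 to 1.01) and SOX15 at 1.24 and 1.73 CPM.

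Of 26 homeobox factors of foregut and midgut, 18 were expressed, 13 higher and 5 lower, with a median of 0.08. BARX1 was the 1 gene at least 1.5-fold higher on the log2(CPM + 1) scale, beside 0.733% of all expressed genes. The interval excluded 1 for 1 of the 18, again BARX1, which was chosen for its difference, beside 16.3% of all expressed genes with an interval above 1 and 19.8% with one below. MEIS1 at 1.65 and 2.50 CPM, a plain ratio of 1.52 (0.918 to 2.54), and IRX3 at 4.29 and 5.59 CPM (0.949 to 1.79) followed, both with intervals that include 1. Among the factors with the highest level per length were the hindlimb and stomatodeal factor PITX1 at 33.5 and 34.1 CPM and NKX2-5 at 13.2 and 14.2 CPM. BARX2, the paralog of BARX1, was not analysed here. The pancreatic factor PDX1 had 1 and 2 counts and the islet factor ISL1 1 count in each library, at or below the floor.

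A list of mostly liver and gut genes, drawn up around HNF4A and FOXA factors, had a median difference of -0.12, beside a ratio of 1.02 for HNF4A itself. Of 29 listed, 12 were expressed, 4 higher and 8 lower in the PKP2 library. The interval lay below 1 for 5 of the 12, beside 19.8% of all expressed genes, and above 1 for none, and none was at least 1.5-fold apart. The 19.8% is not matched for level, and counting intervals narrow with more counts, as for CYP24A1 with 16456 and 14383. More intervals below 1 than above were also found among the branching and type I genes below, and over all expressed genes (2541 against 2096). Type II genes had 1 above and 2 below, and airway genes 0 and 1. Other lists did not lean this way. The FOXA, GATA and HNF factors had 3 above and 3 below, the SOX genes 2 and 1, the epithelial markers 2 and 1 and surfactant lipid handling 7 and 6. CPS1, the urea cycle enzyme carbamoyl phosphate synthetase, stood at 23.6 and 16.8 CPM, a ratio of 0.714 (0.611 to 0.833). The intestinal cadherin CDH17 was 1.36-fold lower (1.19 to 1.56), at 22.3 against 30.4 CPM. CYP24A1, which degrades vitamin D and is better known as a target of the vitamin D receptor than of these factors, is 1 of the 5 and stood at 968 and 856 CPM, 1.13-fold lower (1.11 to 1.16). The disulfide isomerase AGR2 was 1.11-fold lower (1.06 to 1.17) and the tetraspanin-like TM4SF4 1.15-fold lower (1.08 to 1.23). TM4SF20 had a ratio of 0.679 (0.455 to 1.01). Removal of the trend left a list median of -0.14.

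Of the signals that shape lung branching, 32 of 38 listed genes were expressed, 12 higher and 20 lower, with a median of -0.07. The interval lay below 1 for 12 of the 32, beside 19.8% of all expressed genes, and above 1 for 5, beside 16.3%. Here too the shares over all expressed genes are not matched for level. FGFR2, the receptor through which FGF10 drives branching, was the 1 gene at least 1.5-fold lower, beside 0.788% of all expressed genes. That count was 0 with a pseudocount of 5 and at a mean of 5 CPM or more. FGFR2 stood at 5.35 CPM (91 counts) with the vector and 2.92 CPM (49 counts) with added PKP2, 1.84-fold lower (1.28 to 2.66). Its difference was -0.67 with the trend on length and GC taken out. PTCH1, the Hedgehog receptor, was 1.33-fold lower (1.06 to 1.68), and FOXP1, a forkhead factor that acts in lung development, 1.30-fold higher (1.11 to 1.52). ID1 at 224 and 238 CPM, ID3 at 239 and 252 CPM and ELF3 at 232 and 220 CPM were the most abundant per length. FGF10 was not analysed here.

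The differences of type I and airway genes were small in size. Of 11 alveolar type I genes 7 were expressed, 1 higher and 6 lower, with a median of -0.13 that was 0.01 with the trend on length and GC taken out. The interval lay below 1 for 3 of the 7, beside 19.8% of all expressed genes, and above 1 for none. That share is over genes of all levels, and counting intervals narrow with more counts. The caveolin gene CAV1 was 1.11-fold lower (1.08 to 1.15), at 517 against 576 CPM, CAV2 (fractional count) 1.16-fold lower (1.10 to 1.22) and GPRC5A 1.14-fold lower (1.09 to 1.19). All 3 averaged above 100 CPM, where the SD of the difference was 0.19. With the trend removed CAV1 stood at -0.15, CAV2 at -0.17 and GPRC5A at -0.08. AGER, the most specific type I gene of the list, had 16 and 27 counts and passed the filter only through the PKP2 library. Of 13 airway cell genes 7 were expressed, 5 higher and 2 lower, with a median of 0.13. That median was 0.0032 without the filter on low counts and likewise at a mean of 5 CPM or more, and KRT5, at 0.941 and 1.13 CPM, passed the filter only through the PKP2 library. The goblet cell factor SPDEF was 1.21-fold lower (1.00 to 1.47), at 11.9 against 14.4 CPM, TP63 (fractional count) stood at 7.77 and 7.79 CPM, and CAPS at 1.24 and 1.90 CPM. The ciliated cell factor FOXJ1 had 5 counts and 1 count.

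Around LPCAT1 and ABCA3, 28 of 29 genes of surfactant lipid handling were expressed, 13 higher and 15 lower, with a median of -0.01 and none at least 1.5-fold apart. The related acyltransferases LPCAT3 (39.9 and 45.8 CPM) and LPCAT4 (43.9 and 49.0 CPM) lay on the same side as LPCAT1, and LPCAT2 (18.2 and 17.6 CPM) on the other. Among the ABCA transporters, ABCA12 was 1.498-fold lower (1.29 to 1.74), at 17.6 against 26.3 CPM, and ABCA2 1.23-fold lower (1.12 to 1.34), while ABCA1 stood at 11.2 CPM in both libraries. ABCA5 lay on the higher side, at 10.3 and 11.2 CPM (0.879 to 1.34), and ABCA7 stood at 17.9 and 16.8 CPM (0.795 to 1.11), both with intervals that include 1. PCYT1A, the rate-setting enzyme of phosphatidylcholine synthesis, was 1.28-fold lower (1.11 to 1.47), and the fatty acid carrier FABP5 1.24-fold higher (1.16 to 1.32). With the trend on length and GC taken out, FABP5 stood at 0.15 instead of 0.31, PCYT1A at -0.26 instead of -0.34 and ABCA12 at -0.37 instead of -0.56. LPCAT4 stood at 0.05 instead of 0.15, while ABCA5 moved away from 0, to 0.33 from 0.11. SCD, at 1282 and 1294 CPM, and CTSD, at 392 and 397 CPM, were among the most abundant per length and had intervals that include 1. LPCAT2, LPCAT3, LPCAT4, ABCA1, ABCA2, ABCA5 and ABCA7 were named as paralogs after their values were seen.

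**Figure D4:**
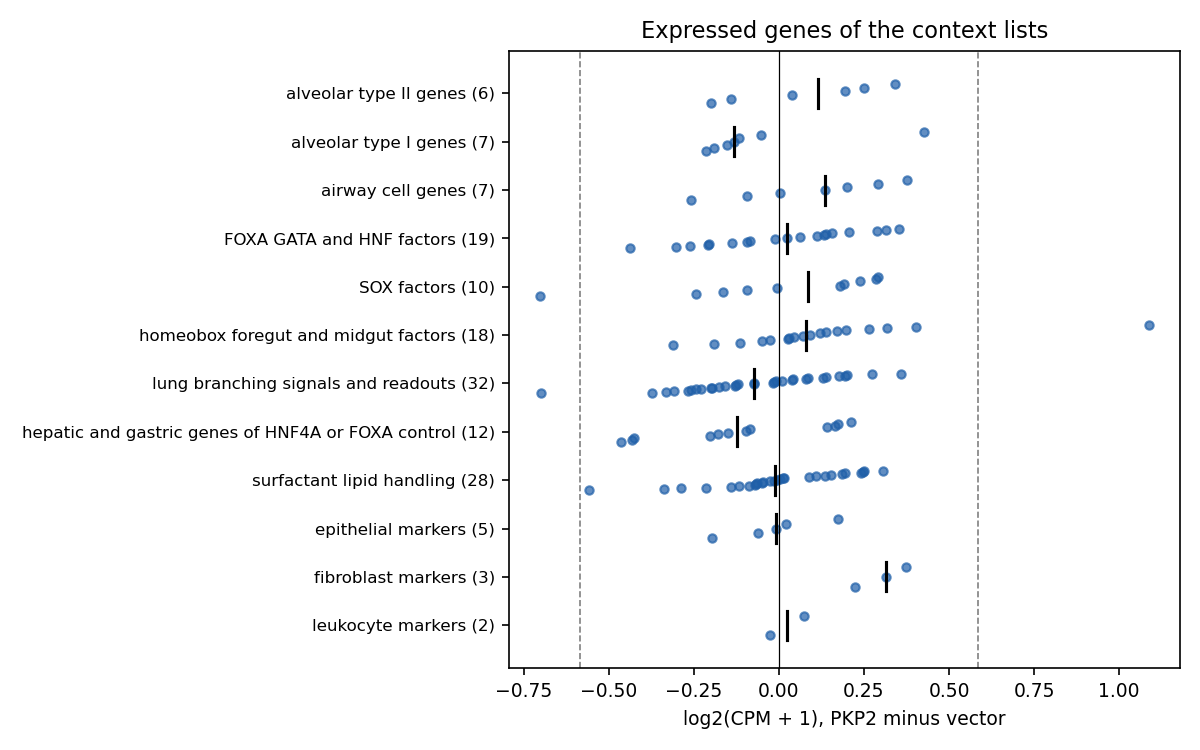
Difference of log2(CPM + 1), PKP2 minus vector, for each expressed gene of the lists (blue points, number of expressed genes in brackets), with the list median (black bar) and dashed lines at 1.5-fold. BARX1 is the point at 1.09 in the homeobox list, SOX17 and FGFR2 both lie at -0.70, and the other points lie within 1.5-fold.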

How the data were processed

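RNA was extracted with Trizol and libraries were made with an Illumina TruSeq kit, per the labels' protocols. The authors deposited estimated counts per Entrez gene, 1 file per library, which are not set to a common depth. HISAT2 2.0.4, Bowtie2, RSEM 1.2.12 and build GRCh38.p12 are listed, with no role or order, per the submitters' processing notes. Annotation, filters and strand use were not given in the sources used here. From the estimated counts CPM was computed, and the difference is log2(CPM + 1), PKP2 minus vector, which understates the fold of genes near 1 CPM. Printed folds are plain CPM ratios with exact 95% Clopper-Pearson intervals from rounded counts that leave out any error beyond counting. No test was run, as each group held 1 library. Symbols came from RefSeq (GRCh38.p14, 16183 of 16399 IDs matched), and coordinates and longest transcripts from GENCODE 29. The trend on length and GC was an additive lowess (statsmodels 0.14.6, span 0.3), available for 98.8% of expressed genes. The calculation was tested on simulated counts with counting error only. Only genes averaging at least 5 CPM were changed there, so the simulation does not cover a gene at the level of BARX1. Genes at 0 in both libraries numbered 0, and a gene without a row is called not analysed.

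The members, the 13 gene lists and the alternatives were chosen with earlier results of these data known. All 9 members were named. From each list the text names the 3 expressed genes with the largest difference in size and the 3 with the highest count per kilobase, and for BARX1 the 3 nearest genes with whole counts. Some genes that this rule takes are left out of the text. Any other gene with a value was picked after its value was seen.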

Additional observations from a re-analysis of the deposited data

How the results depend on the processing

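The count of members at least 1.5-fold apart was 1, BARX1, and so was the count at 2-fold. Both counts were 0 with a pseudocount of 5 and 0 when a mean of 5 CPM or more was required, since BARX1 has a mean of 2.40 CPM, and the 2-fold count was 0 once the trend on length and GC was taken out. The difference of BARX1 was 1.55 with a pseudocount of 0.1, 0.48 with a pseudocount of 5 and 0.87 with the trend removed. Setting the median or the trimmed mean of the log ratios to 0 shifted values by less than 0.01. All 40 recomputed differences of the 8 expressed members moved by less than the size of their counting error. For BARX1 that error is wide, and its difference at a pseudocount of 5 was nevertheless under 1.5-fold. Of the recomputed list counts 183 kept within 1.5 times their value and 9 did not, all 9 between 0 and 1 gene. At a mean of 5 CPM or more the median was 0.19 instead of 0.09 for the SOX genes, -0.13 instead of -0.07 for the branching signals and 0.05 instead of 0.08 for the homeobox factors. Of the list medians 94 moved by less than the counting error of their genes and 2 by more, both with the trend removed: type I genes from -0.13 to 0.01 and epithelial markers from -0.01 to -0.12. No paired analysis was possible because each group held 1 library, and no library could be left out. Depth limits NKX2-1 and BARX1 most, with at most 2 and 61 counts.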

Other observations

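Some genes of lineages outside the lung were expressed in both libraries and others were not. They were singled out once their values had been seen, so they show no pattern of lineages. GATA2, a blood and endothelial factor, stood at 19.0 CPM with the vector and 17.8 CPM with added PKP2, and GATA3, a factor of T cells and breast epithelium, at 8.53 and 7.26 CPM. The heart factor NKX2-5, of the same NKX2 family as NKX2-1, had 225 and 238 counts. The intestinal factor CDX2 was near the limit of expression, at 20 and 23 counts. The fibrinogen chain genes FGA and FGB, classical liver genes, stood at 14.9 and 14.0 CPM and at 11.2 and 12.7 CPM, while the liver genes ALB (2 and 0 counts), APOA1 (1 and 0), AFP (1 and 5), SERPINA1 (10 and 4) and HPN (4 and 2) were under 1 CPM in both. The homeobox factor NKX2-3 had 1 count in each library and GATA5 5 and 12 counts, also under 1 CPM.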
